A study of Mus musculus with 20 samples.

Results

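The liver makes most of the complement and blood clotting proteins of plasma, and transcripts of 38 such genes were followed in liver RNA of fed and fasted mice that carry or lack perilipin 2 (PLIN2), a coat protein of lipid droplets in the cytosol. The genes were chosen by name, 19 from complement and 19 from coagulation and its inhibitors, out of 55487 gene rows in the count table. Earlier results of these data were known when the genes and their role groups were chosen. All 38 had enough counts to be tested. The donors were 15-week-old C57BL/6N females, fed chow or fasted for 24 h before the liver was taken. There were 20 libraries, 5 for each of Plin2+/+ fed, Plin2+/+ fasted and their counterparts with the Plin2-/- genotype. Labels of the counterparts state the feeding state alone; they were taken as Plin2-/- because the design describes no genotype other than Plin2+/+ and Plin2-/-, and are called Plin2-null below. The sources used here do not say which part of Plin2 the deletion covers. No label ties libraries to animals, batches or days, so p-values here reflect only how these samples vary, which may be technical.

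Complement is a set of plasma proteases and membrane-attacking proteins. It is started by C1, which binds antibody, by mannose-binding lectins, which bind microbial sugars and carry the MASP proteases, or by spontaneous turnover of C3. All routes build convertases that cleave C3 and then C5, after which C5b, C6, C7, C8 and C9 assemble into a pore, the membrane attack complex. Coagulation is a second protease cascade. It runs from tissue factor and factor VII, or from the contact system, to factor X and thrombin, which turns fibrinogen into fibrin. Antithrombin, heparin cofactor II, protein C and protein S hold it back, and plasmin later dissolves the clot. Hepatocytes make most of these proteins, and several clotting factors need a vitamin K-dependent modification there before they leave the cell.

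The libraries held between 25506471 and 65579038 counts, and a test was made for 16312 genes. The 38 genes took 4.47 to 5.37% of all unscaled counts in the 10 fed libraries and 3.07 to 3.75% in the 10 fasted ones, with no overlap. Levels of single genes are given in CPM, which are counts scaled to library size by the TMM method. On that scale the sums of the 38 genes overlapped. The lowest fed and highest fasted sums were 41321 and 42135 CPM in Plin2+/+ and 40381 and 40969 CPM in Plin2-null livers. Plin2 itself stood at 260.3 ± 58.2 CPM (SD, n = 5) in Plin2+/+ fed livers and at 1494 ± 240.1 CPM in Plin2+/+ fasted livers. In the Plin2-null groups it stood at 19.7 ± 6.96 CPM fed and 90.5 ± 22.6 CPM fasted, so the libraries without a genotype label held less Plin2 than every Plin2+/+ library, and some transcript remained. The 8 hepatocyte markers summed to 89746 to 175236 CPM over the 20 libraries.

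The bases before the start sites of the genes with the largest changes are shown to identify these genes in the genome; no expression value was tested against them. They are the 5 genes with a RefSeq window that fell most on fasting in Plin2+/+ livers, C8a, C8b, Mbl2, C9 and F11, and the 2 that rose, Pros1 and F9. Each is the 250 bases before the start on the gene's own strand, 5′ to 3′, from RefSeq on GRCm38.p6. The positions are C8a at chr4:104876399-104876648 (minus strand), C8b at chr4:104766067-104766316 (plus strand), Mbl2 at chr19:30232678-30232927 (plus strand), C9 at chr15:6445096-6445345 (plus strand), F11 at chr8:45262032-45262281 (minus strand), Pros1 at chr16:62854057-62854306 (plus strand) and F9 at chrX:59999214-59999463 (plus strand). Capitals mark matches to the motifs described after the sequences.
C8a: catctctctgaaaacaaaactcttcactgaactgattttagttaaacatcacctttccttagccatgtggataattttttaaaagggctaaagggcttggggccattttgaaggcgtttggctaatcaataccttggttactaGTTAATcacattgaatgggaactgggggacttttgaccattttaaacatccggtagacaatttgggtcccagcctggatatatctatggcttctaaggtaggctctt
C8b: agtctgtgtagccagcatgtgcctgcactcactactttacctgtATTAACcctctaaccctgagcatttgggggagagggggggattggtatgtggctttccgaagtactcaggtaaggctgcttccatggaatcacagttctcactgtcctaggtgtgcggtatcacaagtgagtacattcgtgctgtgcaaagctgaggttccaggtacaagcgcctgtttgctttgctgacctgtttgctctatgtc
Mbl2: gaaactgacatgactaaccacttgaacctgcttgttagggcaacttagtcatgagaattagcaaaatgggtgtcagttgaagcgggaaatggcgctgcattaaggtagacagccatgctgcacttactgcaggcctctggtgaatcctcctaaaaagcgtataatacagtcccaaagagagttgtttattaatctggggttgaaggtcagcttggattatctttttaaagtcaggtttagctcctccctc
C9: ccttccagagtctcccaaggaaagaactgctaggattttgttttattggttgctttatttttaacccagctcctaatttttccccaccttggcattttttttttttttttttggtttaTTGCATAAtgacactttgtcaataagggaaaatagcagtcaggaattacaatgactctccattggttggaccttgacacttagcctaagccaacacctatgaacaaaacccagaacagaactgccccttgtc
F11: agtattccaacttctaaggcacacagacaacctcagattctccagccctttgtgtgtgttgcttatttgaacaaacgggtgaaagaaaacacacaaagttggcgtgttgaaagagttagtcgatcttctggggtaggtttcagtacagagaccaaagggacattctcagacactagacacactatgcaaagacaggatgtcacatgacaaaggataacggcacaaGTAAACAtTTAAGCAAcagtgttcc
Pros1: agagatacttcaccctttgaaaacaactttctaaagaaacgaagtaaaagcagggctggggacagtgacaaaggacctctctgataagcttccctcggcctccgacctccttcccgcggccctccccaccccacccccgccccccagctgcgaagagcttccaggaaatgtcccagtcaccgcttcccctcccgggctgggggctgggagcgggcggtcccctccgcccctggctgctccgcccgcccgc
F9: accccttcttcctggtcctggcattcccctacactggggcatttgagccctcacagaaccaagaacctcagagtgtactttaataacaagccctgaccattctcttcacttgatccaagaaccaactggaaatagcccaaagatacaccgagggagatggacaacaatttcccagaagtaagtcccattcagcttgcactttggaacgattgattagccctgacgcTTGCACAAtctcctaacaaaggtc

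Motifs were searched on both strands from 250 bases before to 50 after the start. C8a held GTTAAT, part of the HNF1 site, 107 bases before its start, and C8b held it on the opposite strand, 206 bases before. C9 held the C/EBP site TTGCNNAA 132 bases before its start and F9 held it 24 bases before. F11 held the forkhead site TGTTTAC and the C/EBP site near each other on the opposite strand, 25 and 17 bases before its start. Mbl2 and Pros1 held no match to any of the motifs searched, which says only that these letters were not in these windows. Of the 29 genes with a window in the RefSeq table, 9 held GTTAAT and 10 the C/EBP site, against 7.10% and 10.8% of all 32817 windows. The forkhead site was in F11 and its neighbour Klkb1 alone among the 29, against 3.65% of all windows. The TATA box TATAAA was in 3 of the 29 (13.6% of all windows) and the HNF4 site CAAAGTCCA in 0 of the 29 (0.475% of all windows). A match is a description of the letters, not evidence of binding.

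In fed Plin2+/+ livers the levels of the complement transcripts spread widely, given per gene length as the authors' TPM (transcript abundance scaled to each library). C3, the protein on which all routes converge, had a mean of 6373 TPM and made up 50.3% of the summed complement TPM. Mbl2, a mannose-binding lectin, followed with 1365 TPM, and C2, the classical-pathway convertase protease, was lowest with 12.3 TPM. Among the coagulation genes the fibrinogen chains Fga, Fgg and Fgb led with 6072, 4365 and 3273 TPM, and plasminogen (Plg) came next with 1683 TPM. Pros1, which encodes protein S, was lowest with 41.5 TPM. The order shifted with fasting. Mbl2 moved from rank 2 to rank 4 in complement, and Pros1 left the last place, which Klkb1, the gene of plasma prekallikrein, then held in both genotypes. Klkb1 stood close to F11 there, at 36.4 against 39.7 TPM in fasted Plin2+/+ livers. The last places of Klkb1 and C2 carry an assignment limit, since 43.2% and 42.8% of their exonic bases are shared with other gene models on the same strand. The share of C3 in complement TPM was 57.2% in fasted Plin2+/+ livers. The summed complement TPM went from 12674 ± 668 fed to 8451 ± 1039 fasted in Plin2+/+ and from 13444 ± 629 to 8179 ± 1095 in Plin2-null livers (SD, n = 5). The summed coagulation TPM went from 22057 ± 3474 to 16575 ± 1411 and from 22369 ± 1476 to 14667 ± 1564. On log2(TPM + 1) the median of all genes also shifted, by -0.11 in Plin2+/+ and -0.20 in Plin2-null livers, and the TMM-scaled sums differed less. Summed complement CPM went from 19411 ± 1061 to 15108 ± 648 in Plin2+/+ and from 19289 ± 1143 to 15326 ± 1819 in Plin2-null livers, without overlap. Summed coagulation CPM went from 26509 ± 3447 to 22827 ± 3498 and from 25250.1 ± 1724 to 20922 ± 2639, with overlapping libraries in both genotypes. In tissue RNA, fewer cells of a type and less RNA per cell cannot be told apart.

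**Figure D1:**
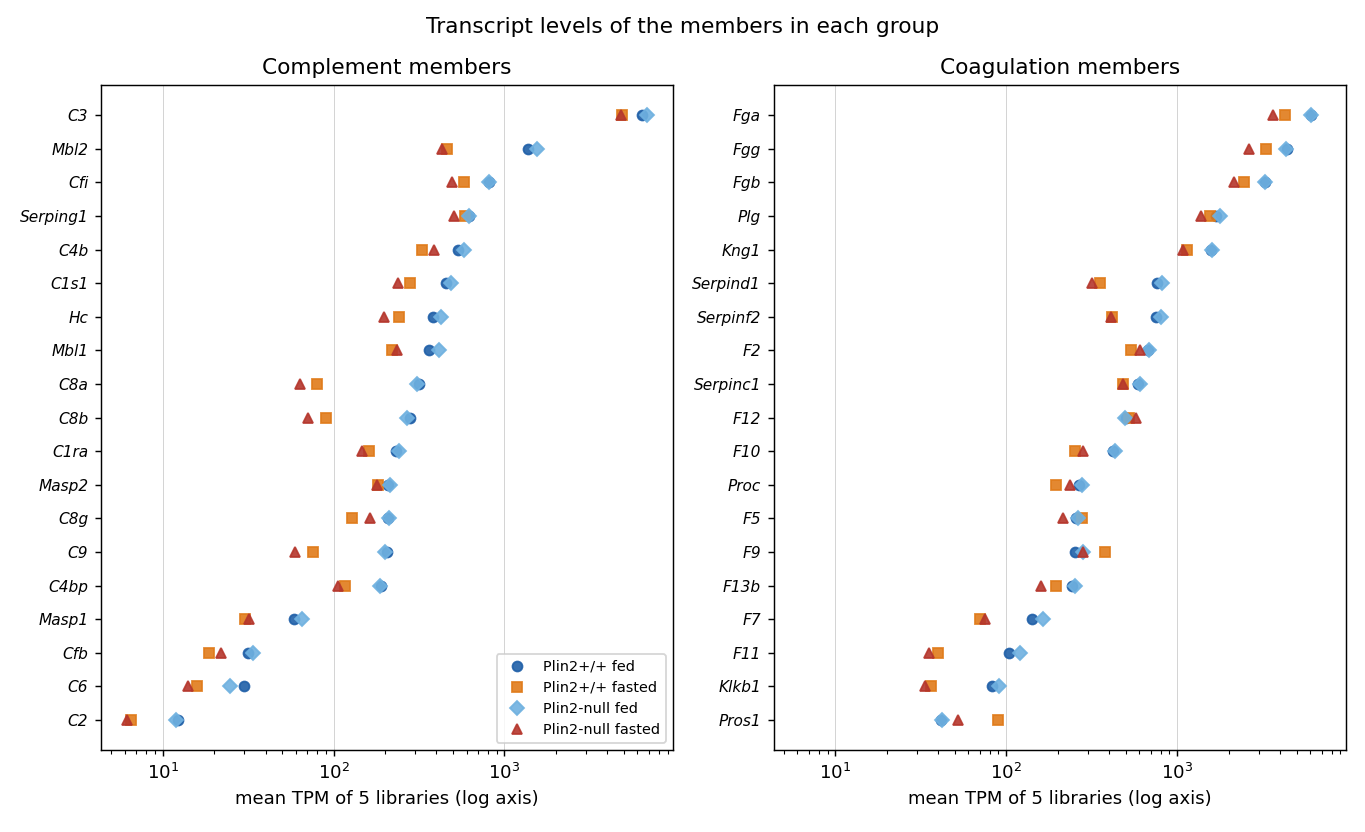
Mean TPM of the 5 libraries of each group for the 19 complement genes (left) and the 19 coagulation genes (right), on a log axis, ordered by the Plin2+/+ fed level. C3 and the fibrinogen chains lie far to the right in all 4 groups, and the fasted means of C8a, C8b, C9 and Mbl2 lie well to the left of the fed ones.

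The question of the fasting comparisons was how each system differed between fasted and fed livers within a genotype. In Plin2+/+ livers, 16 of the 19 complement genes fell and 0 rose by edgeR's quasi-likelihood test at an adjusted p under 0.05, where 42.6% of all tested genes were called, 21.7% lower and 20.9% higher. Their median log2 fold change was -0.56, against -0.01 over all tested genes. Of the 19 coagulation genes, 6 fell and 2 rose, with a median of -0.23. The CPM of fasted and fed libraries did not overlap, with fasted lower, for 11 complement and 5 coagulation genes (13.5% of all tested genes), and fasted was higher without overlap for Pros1 and F9 alone (13.2%). In Plin2-null livers, 13 complement genes fell and 0 rose (median -0.53), and 8 coagulation genes fell and 2 rose (median -0.29), where 36.1% of all tested genes were called, 18.1% lower and 18.0% higher. Groups did not overlap, with fasted lower, for 13 complement and 8 coagulation genes (11.8% of all tested genes), and fasted was higher without overlap for F12 alone (12.6%). Genes called with a fold of 2 or more, lower, numbered 4 in complement (C8a, C8b, C9 and Mbl2) and 2 in coagulation (F11 and Klkb1) in Plin2+/+ livers, against 9.42% of all genes. In Plin2-null livers they were the same 4 and 3, with Serpind1 added, against 7.15%. The coagulation calls depended on the scaling: with library size alone, which moves the median of all genes to -0.16 in Plin2+/+ and -0.21 in Plin2-null livers, 13 fell and 2 rose in Plin2+/+ and 13 fell and 0 rose in Plin2-null livers. Of all genes, 25.6% were then called lower and 11.4% higher in Plin2+/+, and 26.0% lower and 8.44% higher in Plin2-null livers.

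**Figure D2:**
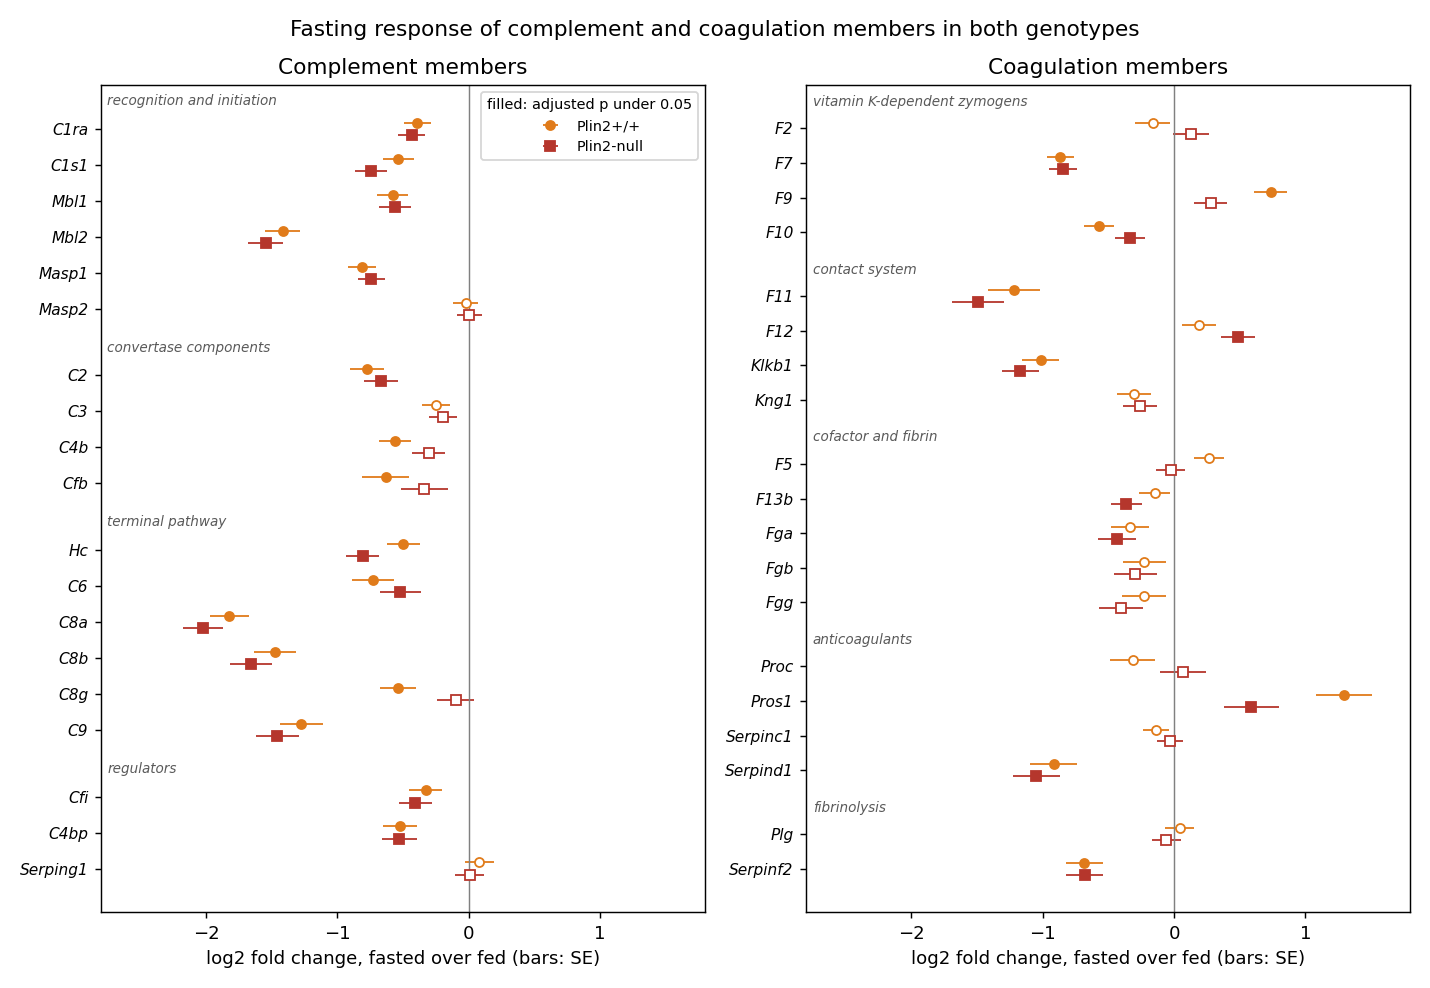
Log2 fold change of fasted over fed livers for each gene (bars: SE), complement on the left and coagulation on the right, grouped by role, with circles for Plin2+/+ and squares for Plin2-null and filled symbols for an adjusted p under 0.05. C8a lies farthest left, 14 of the 19 coagulation genes lie left of 0 in each genotype, and the filled points to the right are Pros1, F9 (Plin2+/+) and F12 (Plin2-null).

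The largest falls, those of C8a and C8b, were in the terminal pathway, whose products form the membrane attack complex. Of the 6 terminal genes among the 38, 6 fell in Plin2+/+ and 5 in Plin2-null livers, where 21.7% and 18.1% of all tested genes were called lower. C7, which is also part of the complex but was not among the 38, stood at 1.48 ± 0.608 CPM in Plin2+/+ fed livers and passed in neither genotype (-0.11 ± 0.33 and 0.33 ± 0.34, edgeR adjusted p = 0.816 and 0.478). C8a encodes the alpha chain of C8, which inserts into the target membrane. It stood at 410.1, 517, 376, 443 and 444 CPM in Plin2+/+ fed livers and at 96.0, 159.9, 103, 111 and 149 CPM in fasted ones. In Plin2-null livers it was 453, 429, 410.1, 413 and 293 CPM fed and 114, 86.0, 91.5, 102 and 97.4 CPM fasted. Every fasted library lay below every fed one in both genotypes. The log2 fold change was -1.82 ± 0.15 (SE) in Plin2+/+ and -2.02 ± 0.15 in Plin2-null livers, with edgeR adjusted p = 4.41e-09 and 1.34e-09.

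C8b, the beta chain, lies on chromosome 4 beside C8a, with 11.13 kb between the genes and opposite strands. Its CPM was 275, 256, 205, 327 and 289 in Plin2+/+ fed and 74.8, 115, 109, 80.11 and 108 in fasted livers. Without PLIN2 the values were 281, 255, 224, 251 and 208 fed and 104, 60.0, 76.2, 61.5 and 85.1 fasted. Again no fasted library reached a fed one. The changes were -1.47 ± 0.16 and -1.66 ± 0.16 (edgeR adjusted p = 2.08e-07 and 6.17e-08).

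C9, the protein that polymerises into the pore, went from 198, 175, 199.6, 253 and 165 CPM to 80.393, 118, 54.4, 74.0 and 81.7 CPM in Plin2+/+ livers. In Plin2-null livers it went from 181, 159, 207, 198 and 168 CPM to 66.9, 63.0, 82.2, 52.5 and 67.4 CPM. The groups did not overlap in either genotype. The log2 changes were -1.28 ± 0.16 and -1.46 ± 0.16 (edgeR adjusted p = 1.91e-06 and 4.64e-07). Hc, which encodes C5, fell by 0.50 ± 0.13 and 0.81 ± 0.13 on the log2 scale (edgeR adjusted p = 0.00279 and 3.19e-05). C6, which joins C5b to start the complex, fell by 0.73 ± 0.16 and 0.52 ± 0.16 (edgeR adjusted p = 0.000721 and 0.0126).

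C8g, the gamma chain, which is a lipocalin bound to the alpha chain, differed from the other C8 chains in its values. In Plin2+/+ livers it was 116, 115, 118, 98.8 and 138 CPM fed and 57.9, 70.8, 77.0, 97.6 and 100.4 CPM fasted. In Plin2-null livers it was 124, 127, 123, 82.7 and 105 CPM fed and 90.8, 106, 111, 109.5 and 106 CPM fasted. The groups overlapped in both genotypes. C8g fell by 0.54 ± 0.14 in Plin2+/+ livers (edgeR adjusted p = 0.00364), and its change was -0.10 ± 0.14 in Plin2-null livers (edgeR adjusted p = 0.608). The difference between the genotypes did not pass the test (interaction 0.44 ± 0.20, edgeR adjusted p = 0.339).

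The ratio of chains within a library does not depend on the library's scaling. C8a over C8g in TPM was 1.45, 1.85, 1.31, 1.84 and 1.32 in Plin2+/+ fed livers and 0.680, 0.927, 0.548, 0.467 and 0.609 in fasted ones. The Plin2-null mean was 1.49 ± 0.337 fed and 0.390 ± 0.0743 fasted. Every fasted ratio was below every fed ratio within both genotypes. C8b over C8g likewise had no overlap, with means of 1.38 ± 0.344 and 0.730 ± 0.181 in Plin2+/+ and 1.31 ± 0.282 and 0.441 ± 0.141 in Plin2-null livers. C8a over C8b stayed closer, at 1.15 ± 0.190 fed and 0.894 ± 0.135 fasted in Plin2+/+ livers, with overlapping groups. The fibrinogen chains gave a different picture. Fga over Fgb was 1.87 ± 0.147 fed and 1.74 ± 0.127 fasted in Plin2+/+ livers, and Fgg over Fgb was 1.33 ± 0.0572 and 1.34 ± 0.156, both with overlapping groups.

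**Figure D3:**
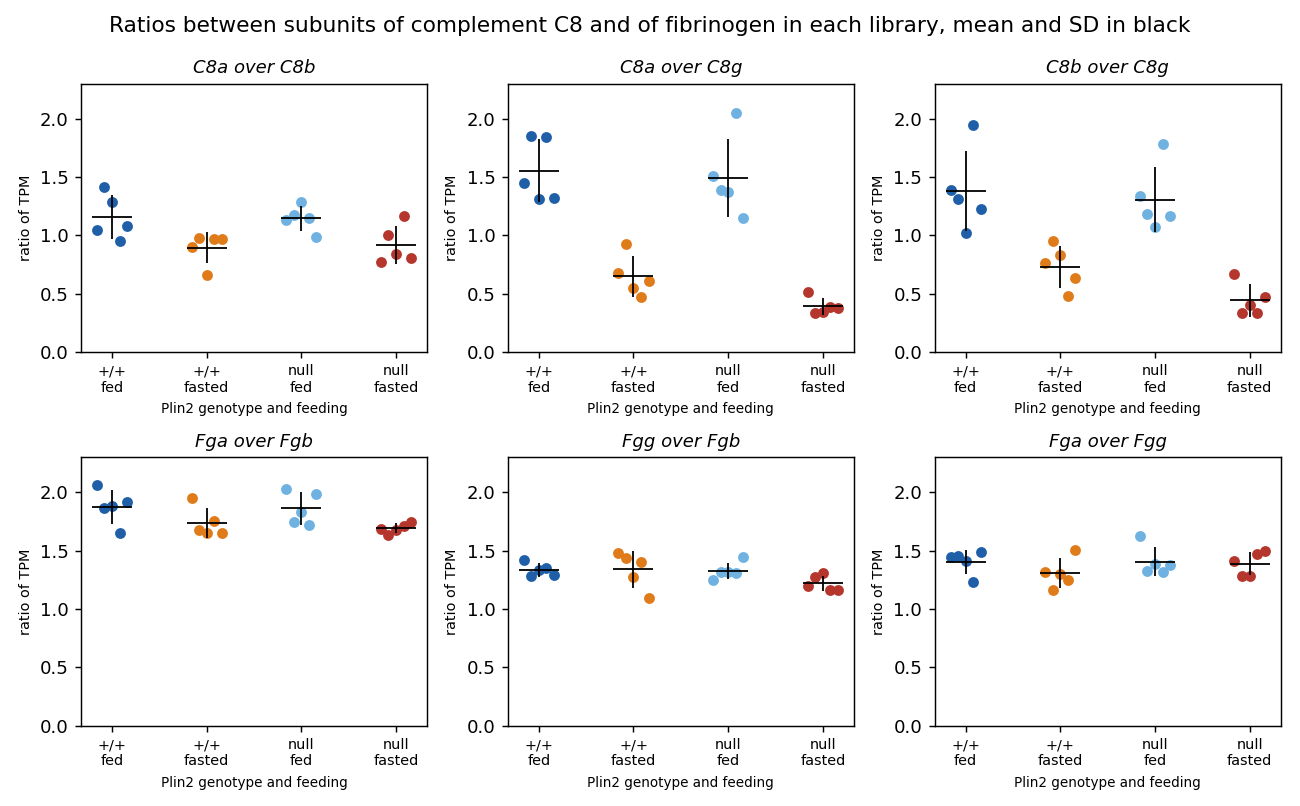
Ratio of TPM between the chains of C8 (top) and of fibrinogen (bottom) in each library (points), with mean and SD in black, for the 4 groups. Both ratios over C8g are lower in every fasted library than in any fed library of the same genotype, while the fasted and fed fibrinogen ratios of Plin2+/+ livers overlap.

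Of the 6 genes of recognition and initiation, 5 fell in each genotype, where 21.7% (Plin2+/+) and 18.1% (Plin2-null) of all tested genes were called lower. Mbl2 was 431, 652, 583, 557 and 607 CPM in Plin2+/+ fed and 195, 252, 179.9, 249 and 185 CPM in fasted livers. Among Plin2-null livers it had 589, 526, 653, 618 and 604 CPM fed and 229, 229.5, 211, 163 and 191 CPM fasted. The groups were far apart in both genotypes, with log2 changes of -1.42 ± 0.13 and -1.55 ± 0.13 (edgeR adjusted p = 2.49e-08 and 1.03e-08). Mbl1, the other mannose-binding lectin of the mouse, changed less, by -0.58 ± 0.12 and -0.56 ± 0.12 (edgeR adjusted p = 0.000522 and 0.000948). The ratio of Mbl2 to Mbl1 in TPM was 3.88 ± 0.866 fed and 2.14 ± 0.414 fasted in Plin2+/+ livers. There the lowest fed ratio, 2.67, lay just above the highest fasted one, 2.65. In Plin2-null livers the ratio was 3.74 ± 0.326 fed and 1.90 ± 0.270 fasted, without overlap.

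Masp1, a protease carried by these lectins, fell by 0.81 ± 0.10 and 0.74 ± 0.10 on the log2 scale (edgeR adjusted p = 2.07e-06 and 8.96e-06). Masp2, the MASP that cleaves C4 and C2, was 260.1 ± 27.2 CPM fed and 256 ± 27.1 CPM fasted in Plin2+/+ livers and 252 ± 18.6 and 253 ± 13.0 CPM in Plin2-null livers. Its log2 changes were -0.02 ± 0.09 and 0.00 ± 0.09, and it passed the test in neither genotype (edgeR adjusted p = 0.865 and 0.977). The antisense gene Tardbp overlaps 54.9% of the exonic bases of Masp2, so its counts are uncertain without the strand setting. C1ra and C1s1, the proteases of C1, lie 6.901 kb apart on chromosome 6 and fell by 0.39 ± 0.10 and 0.54 ± 0.12 in Plin2+/+ and by 0.43 ± 0.10 and 0.74 ± 0.12 in Plin2-null livers. Both have near-identical copies, C1rb and C1s2, that may share reads.

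Among the convertase components, C2 fell by 0.77 ± 0.13 in Plin2+/+ and 0.67 ± 0.13 in Plin2-null livers (edgeR adjusted p = 5.05e-05 and 0.000331). C4b, which encodes C4, fell by 0.56 ± 0.13 and Cfb, the protease factor B of the alternative pathway, by 0.63 ± 0.18 in Plin2+/+ livers (edgeR adjusted p = 0.00102 and 0.00648). In Plin2-null livers their changes were -0.30 ± 0.13 and -0.34 ± 0.18 (edgeR adjusted p = 0.0616 and 0.142). The gene model Gm20547 shares 79.5% of the exonic bases of Cfb and 42.8% of those of C2 on the same strand, and C4b has a near copy, C4a, so these counts carry an assignment limit. C3 was 11779, 13153, 12734, 13036 and 11539 CPM in Plin2+/+ fed and 10768, 10749, 10526, 9499 and 10785 CPM in fasted livers. Every fasted library was below every fed one, yet the change of -0.25 ± 0.11 missed the threshold (edgeR adjusted p = 0.0611). It passed in Plin2+/+ livers with DESeq2, voom, library size alone, the stricter filter and both TPM settings.

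Of the 3 fluid-phase regulators, 2 fell in each genotype, where 21.7% (Plin2+/+) and 18.1% (Plin2-null) of all tested genes were called lower. C4bp, a cofactor for breakdown of C4b, fell by 0.52 ± 0.13 and 0.53 ± 0.13 (edgeR adjusted p = 0.0029 and 0.00342). Cfi, the protease factor I that cleaves C3b and C4b, fell by 0.33 ± 0.13 and 0.41 ± 0.13 (edgeR adjusted p = 0.0409 and 0.0142). The call of Cfi in Plin2+/+ livers was lost without any one of 6 of its libraries. Serping1, the C1 inhibitor, was 552 ± 46.8 CPM fed and 584 ± 90.4 CPM fasted in Plin2+/+ and 511 ± 32.7 and 513 ± 60.3 CPM in Plin2-null livers. It passed in neither genotype (edgeR adjusted p = 0.586 and 0.972), but on log2(TPM + 1) its change in Plin2-null livers was -0.30 and passed. Serping1 over C1s1 in TPM was 1.38 ± 0.119 fed and 2.18 ± 0.547 fasted in Plin2+/+ livers and 1.27 ± 0.113 and 2.13 ± 0.226 in Plin2-null livers, without overlap in either.

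In the contact system, which starts clotting at charged surfaces, F11 and Klkb1 fell in both genotypes. F11, the gene of factor XI, was 65.8, 70.1, 76.4, 101 and 125 CPM in Plin2+/+ fed and 30.3, 41.4, 45.4, 30.0 and 41.2 CPM in fasted livers. In Plin2-null livers it was 95.0, 125, 72.5, 101 and 81.2 CPM fed and 41.8, 39.9, 24.6, 24.9 and 37.8 CPM fasted. No fasted library reached a fed one. The log2 changes were -1.22 ± 0.20 and -1.49 ± 0.20 (edgeR adjusted p = 4.59e-05 and 5.92e-06). Klkb1, its neighbour 4.657 kb away on chromosome 8 and a related protease, fell by 1.01 ± 0.14 and 1.17 ± 0.14 (edgeR adjusted p = 5.74e-06 and 1.31e-06). The gene model Gm45753 shares 43.2% of its exonic bases.

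F12, which encodes factor XII, went the other way. It was 306, 417, 412, 359.6 and 387 CPM in Plin2+/+ fed and 357, 407, 418, 426 and 538 CPM in fasted livers. The corresponding Plin2-null values were 417, 361, 368, 262 and 324 CPM fed and 424, 452, 553, 509.8 and 487 CPM fasted. Only the Plin2-null groups did not overlap. F12 rose by 0.49 ± 0.13 in Plin2-null livers (edgeR adjusted p = 0.00539), a call that ended with library size alone and on both TPM scales, and its change in Plin2+/+ livers was 0.19 ± 0.13 (edgeR adjusted p = 0.246). Kng1, the kininogen from which kallikrein frees bradykinin, passed in neither genotype (-0.30 ± 0.13 and -0.26 ± 0.13, edgeR adjusted p = 0.0622 and 0.121), and has a near copy, Kng2.

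The vitamin K-dependent zymogens moved in both directions. F7, the protease that tissue factor activates, was 90.4, 104, 115, 83.5 and 109 CPM in Plin2+/+ fed and 43.9, 58.9, 57.8, 60.4 and 54.4 CPM in fasted livers. It fell by 0.87 ± 0.10 in Plin2+/+ and 0.84 ± 0.10 in Plin2-null livers without overlap (edgeR adjusted p = 8.17e-07 and 1.53e-06). F10, the gene of factor X, lies 1.498 kb from F7 on the same strand of chromosome 8. It fell by 0.57 ± 0.11 and 0.34 ± 0.11 (edgeR adjusted p = 0.00031 and 0.0232), and in Plin2-null livers the call was lost without fed replicate 1, fed replicate 2 or fasted replicate 4.

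F9, the gene of the haemophilia B factor IX, was 286, 250.2, 284, 263 and 226 CPM in Plin2+/+ fed and 425, 519, 465, 383 and 388 CPM in fasted livers. In Plin2-null livers it was 268, 218, 267, 352 and 260.4 CPM fed and 400.4, 350.4, 317, 290.1 and 302 CPM fasted. The Plin2+/+ groups were apart and the Plin2-null groups overlapped, where fed replicate 4 was above 4 of the 5 fasted libraries. F9 rose by 0.74 ± 0.13 in Plin2+/+ livers (edgeR adjusted p = 7.1e-05), and its change was 0.28 ± 0.13 in Plin2-null livers (edgeR adjusted p = 0.0848; 0.0171 without fed replicate 4). The interaction was -0.45 ± 0.18 (edgeR adjusted p = 0.290). F2, which encodes prothrombin, passed in neither genotype (-0.16 ± 0.13 and 0.13 ± 0.13, edgeR adjusted p = 0.345 and 0.475).

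Pros1, the cofactor of activated protein C, had the largest rise. It was 62.1, 56.4, 67.6, 74.6 and 61.4 CPM in Plin2+/+ fed and 107, 169, 278, 95.1 and 139.6 CPM in fasted livers. The Plin2-null libraries gave 52.7, 52.5, 69.4, 73.5 and 59.6 CPM fed and 88.2, 70.9, 108, 90.5 and 106 CPM fasted. Fasted Plin2+/+ replicate 3 was highest, at 278 CPM against 95.1 to 169 CPM in the other 4, and the Plin2-null groups overlapped. The rise was 1.29 ± 0.21 in Plin2+/+ (edgeR adjusted p = 5.42e-05; 0.99 without fasted replicate 3) and 0.59 ± 0.21 in Plin2-null livers (edgeR adjusted p = 0.0335). The Plin2-null call was lost without any one of 5 of its libraries and under library size alone, no filter and both TPM settings.

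**Figure D4:**
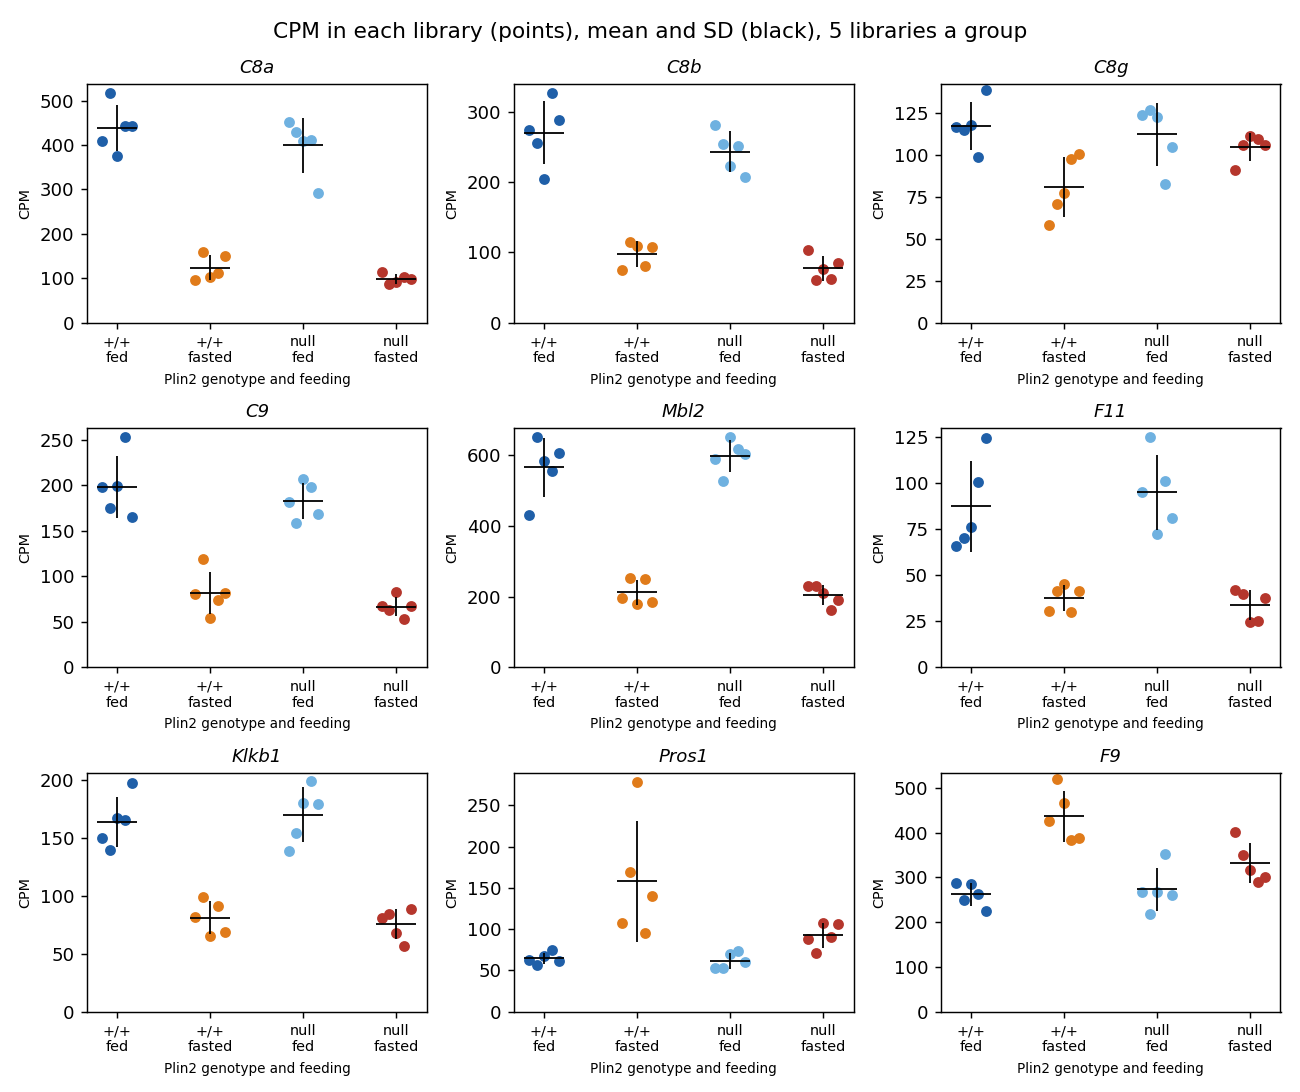
CPM in each library (points) with mean and SD in black for 9 genes in the 4 groups. The fasted points of C8a, C8b, C9, Mbl2, F11 and Klkb1 lie below all fed points, those of Pros1 and F9 lie above them in Plin2+/+ livers, and fasted Plin2+/+ replicate 3 of Pros1 is highest at 278 CPM.

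The other anticoagulants differed among themselves. Serpind1, heparin cofactor II, was 582, 554, 636, 823 and 556 CPM in Plin2+/+ fed and 319, 454, 288, 385 and 224 CPM in fasted livers. It fell by 0.92 ± 0.18 and, in Plin2-null livers, by 1.05 ± 0.18, with no overlap in either genotype (edgeR adjusted p = 0.000283 and 9.46e-05). Serpinc1, antithrombin, was 1924 ± 139 CPM fed and 1748 ± 149.8 CPM fasted in Plin2+/+ and 1847 ± 90.0 and 1804 ± 189 CPM in Plin2-null livers, and passed in neither (edgeR adjusted p = 0.272 and 0.814). Proc, the gene of protein C, passed in neither (-0.31 ± 0.17 and 0.07 ± 0.17, edgeR adjusted p = 0.152 and 0.791). Serpinc1 passed as lower only with library size alone (-0.30 in Plin2+/+ livers) or the TPM settings, and 34.4% of its exonic bases lie opposite Zbtb37.

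In fibrinolysis, Serpinf2, the plasmin inhibitor alpha-2-antiplasmin, was 469, 612, 664, 753 and 806 CPM in Plin2+/+ fed and 322, 405, 506, 391 and 434 CPM in fasted livers. The groups overlapped there and not in Plin2-null livers, and Serpinf2 fell by 0.68 ± 0.14 in both genotypes (edgeR adjusted p = 0.000521 and 0.000723). Plg, whose product plasmin it inhibits, was 2377 ± 226 CPM fed and 2449 ± 284 CPM fasted in Plin2+/+ livers and passed in neither genotype (edgeR adjusted p = 0.78 and 0.706). The ratio of Serpinf2 to Plg in TPM went from 0.442 ± 0.0673 to 0.269 ± 0.0333 in Plin2+/+ and from 0.450 ± 0.0430 to 0.295 ± 0.0341 in Plin2-null livers, without overlap.

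The fibrinogen chains lie together on chromosome 3 and moved together between libraries. Fga was 6304, 5834, 6452, 8158 and 7837 CPM in Plin2+/+ fed and 4598, 6045, 7138, 4856 and 4804 CPM in fasted livers. The libraries that were highest for Fga, fed replicate 4 and fasted replicate 3, were also highest for Fgb and Fgg. None of the 3 chains passed in Plin2+/+ livers, with changes of -0.33 ± 0.14, -0.22 ± 0.16 and -0.23 ± 0.17 for Fga, Fgb and Fgg (edgeR adjusted p = 0.0665, 0.283 and 0.294). In Plin2-null livers Fga fell by 0.44 ± 0.14 (edgeR adjusted p = 0.0218), a call lost without fed replicate 1, fasted replicate 4 or fasted replicate 5. F13b, the carrier subunit of the fibrin-crosslinking factor XIII, fell by 0.36 ± 0.12 in Plin2-null livers (edgeR adjusted p = 0.0198), lost without fed replicate 4 or fasted replicate 4. F5, the cofactor of factor Xa, changed by 0.27 ± 0.11 in Plin2+/+ and -0.02 ± 0.11 in Plin2-null livers (edgeR adjusted p = 0.0592 and 0.881). With library size alone all 3 fibrinogen chains passed as lower in both genotypes.

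Of the 19 complement genes, 13 fell in both genotypes, C4b, C8g and Cfb passed in Plin2+/+ livers alone, and C3, Masp2 and Serping1 in neither. Of the 19 coagulation genes, F7, F10, F11, Klkb1, Serpind1 and Serpinf2 fell in both and Pros1 rose in both. F9 passed in Plin2+/+ alone, F12, F13b and Fga in Plin2-null alone, and 8 in neither. Of all tested genes, 18.1% were called lower and 18.0% higher in Plin2-null livers, so the shares called in both genotypes can be no larger. Those joint shares were not counted. A call in 1 genotype alone does not show a difference between them. In the interaction test 0 of the 38 genes passed by edgeR, as 0 of all genes did (0.00% of 16312). At an unadjusted edgeR p under 0.05 there were 1 complement gene, C8g, and 2 coagulation genes, F9 and Pros1, against 2250 of all 16312 genes. DESeq2 and voom called 0 of the 38, against 0.380% and 0.00% of all genes.

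The genotype comparisons asked whether loss of PLIN2 went with other levels at the same feeding state. In fed livers 0 of the 38 genes passed by edgeR, against 0.0184% of all genes, and DESeq2 and voom also called 0. At an unadjusted edgeR p under 0.05 there was 1 of the 38, C6, against 694 of all 16312 genes. Its means were 40.1 ± 8.03 CPM (Plin2+/+) and 31.1 ± 4.56 CPM (Plin2-null) (log2 difference -0.36 ± 0.16, edgeR adjusted p = 1). In fasted livers, where 3.24% of all genes were called, 0 complement genes and 1 coagulation gene passed by edgeR (1.73% of all genes were called lower). The share of all genes called moved with single libraries. It was 0.542%, 0.0789%, 0.504%, 5.78% and 10.8% without Plin2+/+ fasted replicates 1 to 5 in turn. It was 1.26%, 0.936% and 0.0912% without Plin2-null fasted replicates 1, 3 and 5, and 1.76% and 1.92% without replicate 3 of the Plin2+/+ fed and Plin2-null fed groups. Unadjusted, C4b, C8a, C8b, C8g, F5, F9, F13b and Pros1 were under 0.05 by edgeR, against 3962 of all 16312 genes. Pros1 was lower in Plin2-null livers by 0.77 ± 0.21 on the log2 scale (edgeR adjusted p = 0.0494), with overlapping groups. This call was lost without any one of 16 of the 20 libraries, with adjusted p from 0.0158 to 0.130 over the 20, and the difference was -0.47 without Plin2+/+ fasted replicate 3. DESeq2 called Pros1, F5 and F9, where it called 8.61% of all genes, and voom called 0 of the 38, where it called 3.48%. F5 was 1024, 938, 809, 776 and 775 CPM in Plin2+/+ and 752, 740.5, 668, 693 and 571 CPM in Plin2-null fasted livers. Its groups did not overlap in CPM (2.21% of all genes, lower) but overlapped in TPM. The difference of -0.34 ± 0.11 missed the threshold (edgeR adjusted p = 0.0847). Without Plin2+/+ fasted replicate 5, C8g and 3 coagulation genes, F5, F9 and Pros1, passed, where 10.8% of all genes were called.

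Spread within groups was modest for most genes. The median coefficient of variation of complement genes was 11.9% in Plin2+/+ fed and 16.8% in Plin2+/+ fasted livers, and that of coagulation genes 13.0% and 17.5%. The widest was Pros1 in Plin2+/+ fasted livers at 46.5%, and the narrowest Masp1 in Plin2-null fed livers at 4.30%. On CPM, single libraries tended to be extreme for many of the genes at once. Plin2-null fasted replicate 4 was the lowest of its group for 23 of the 38 genes (23.8% of all genes). In Plin2+/+ fasted livers replicate 2 was highest for 18 (20.0% of all genes). These 2 libraries had the largest (1.09) and the smallest (0.812) TMM scaling factor of their groups, respectively. Summed complement TPM of Plin2-null fasted livers was lowest in replicate 3 (6435, against 8179 in replicate 4). The same replicate 3 was highest in CPM (16974). The part of the scaling in these extremes was not tested. Leaving out any library left 15 to 17 complement genes called on fasting in Plin2+/+ and 13 to 14 in Plin2-null livers. Of all genes, 36.9 to 42.6% and 30.6 to 36.8% were called in those fits.

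Related genes outside the 38 were read from lists of the same pathways, to be set beside the 42.6% of all genes called on fasting in Plin2+/+ and the 36.1% in Plin2-null livers. Of 22 other complement genes, 5 fell and 1 rose in Plin2+/+ and 4 fell and 1 rose in Plin2-null livers, which is 27.3% and 22.7% called. C5ar1, the C5a receptor, rose by 1.18 ± 0.20 and 1.44 ± 0.20 (edgeR adjusted p = 5.75e-05 and 8.33e-06), from 1.70 to 3.87 CPM in Plin2+/+ livers. Of 19 other coagulation and fibrinolysis genes, 8 fell and 3 rose in Plin2+/+ and 7 fell and 1 rose in Plin2-null livers (57.9% and 42.1% called). Proz (protein Z) and Serpina10 (its partner, which inhibits factor Xa) fell by 1.27 ± 0.13 and 0.84 ± 0.11 in Plin2+/+ and by 1.09 ± 0.13 and 1.04 ± 0.11 in Plin2-null livers. Of 8 genes of the vitamin K cycle and factor export, 2 fell in each genotype, and 1 rose in Plin2+/+ and 2 in Plin2-null livers (37.5% and 50% called). Ggcx, the carboxylase that modifies the vitamin K-dependent factors, fell by 0.98 ± 0.11 and 0.83 ± 0.11 (edgeR adjusted p = 6.43e-07 and 6.42e-06).

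Not all secreted liver proteins moved one way. On fasting, 21.7% of all genes were called lower and 20.9% higher in Plin2+/+ livers. In Plin2-null livers 18.1% were called lower and 18.0% higher. Of 17 acute phase genes, 7 fell and 5 rose in Plin2+/+ and 4 fell and 5 rose in Plin2-null livers. Lbp, which binds bacterial lipopolysaccharide, rose by 1.36 ± 0.13 and 1.30 ± 0.13, and Orm1, orosomucoid, fell by 0.88 ± 0.14 and 0.89 ± 0.14. Of 16 other plasma protein genes, 6 fell and 4 rose in Plin2+/+ and 5 fell and 2 rose in Plin2-null livers. Alb, albumin, passed in neither genotype (0.13 ± 0.16 and 0.03 ± 0.16, edgeR adjusted p = 0.546 and 0.916). Of 16 regulators known to act on such genes, 6 rose and 3 fell in Plin2+/+ and 4 rose and 2 fell in Plin2-null livers. Cebpb, a C/EBP factor of the acute phase response, rose by 1.63 ± 0.33 and 2.23 ± 0.34, and Cebpd, another, by 2.79 ± 0.49 and 3.00 ± 0.49. The changes of the 16 ran from -2.30 to 2.79 in Plin2+/+ and from -1.65 to 3.00 in Plin2-null livers. Nr3c1, Onecut1, Ppara and Ppargc1a were also called in both genotypes, and Cebpa, Hnf4a and Il6ra in Plin2+/+ livers alone.

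Markers of liver cell types were counted in the same way, with 42.6% and 36.1% of all genes called in Plin2+/+ and Plin2-null livers. Of 8 Kupffer cell markers, 6 fell in Plin2+/+ and 5 in Plin2-null livers and 0 rose, and their summed level ran from 391 to 518 CPM fed and 209 to 374 CPM fasted in Plin2+/+ livers. The Plin2-null range was 305 to 729 CPM fed and 295 to 374 CPM fasted. Of 8 stellate cell markers, 5 fell and 0 rose in each genotype, with summed levels of 392 to 684 CPM fed and 353 to 483 CPM fasted in Plin2+/+ and 407 to 527 and 346 to 463 CPM in Plin2-null livers. Of 8 lymphocyte markers, 4 fell in Plin2+/+ livers, from a summed 6.19 to 7.18 CPM fed to 2.18 to 4.31 CPM fasted, and 0 in Plin2-null livers. Of 8 hepatocyte markers, 4 rose and 1 fell in Plin2+/+ and 2 rose and 1 fell in Plin2-null livers. Of 8 sinusoidal endothelial markers, 2 rose and 2 fell in each genotype. Of 5 tested cholangiocyte markers, 3 fell in Plin2+/+ and 1 in Plin2-null livers, and of 7 neutrophil and monocyte markers 2 rose and 2 fell and 3 rose and 1 fell, respectively. The part of these cells in the changes of the 38 genes was not tested.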

How the data were processed

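Liver mRNA was sequenced from 20 libraries in 4 groups of 5, and total counts of 25506471 to 65579038 set the counting precision. The authors deposited unnormalised counts for mouse Ensembl genes and, separately, TPM values, which are per gene length and scaled to each library. Per the submitters' processing notes, reads were aligned with HISAT2 1.2.1 and counted with featureCounts 1.4.6-p1; the notes list the human build GRCh38, and no source used here gives the strand setting. Column names of the TPM values were shifted by 1 cell, which was corrected, and 20 of 20 columns followed their own library's counts best. Within groups, none of 40 pairs of libraries agreed within sampling noise by a chi-square test.

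Counts were fitted in R 4.3.3 with edgeR 4.0.16 (filterByExpr, TMM, robust glmQLFit over all 20 libraries, glmQLFTest), with Benjamini-Hochberg adjustment over 16312 genes and a threshold of 0.05. Each SE was taken from the log2 fold change and its F statistic. Scaling factors ran from 0.750 to 1.15. Alternatives were DESeq2 1.42.0, limma 3.58.1 (voom, log2(TPM + 1) and log2(TPM + 0.1)), RLE factors, library size alone, no filter, at least 10 CPM in 5 libraries, only the compared groups, and leaving out each library. Ratios are of TPM within a library. Gene positions and overlaps came from GENCODE M21 (GRCm38) and windows from RefSeq (GRCm38.p6), where 29 of 38 genes matched. Members, lists and role groups were chosen with earlier results of these data known; all 38 members were named, and of each other list up to 4 called genes with the smallest adjusted p or genes singled out after their values were seen. Python 3.11.15 and matplotlib 3.10.9 made the tables and plots.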

Additional observations from a re-analysis of the deposited data

Results flagged for a closer look

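Levels were looked over for a library apart from the others of its group by Dixon's test, in 152 sets of 5 libraries (38 genes in 4 groups), of which chance sets apart about 1 in 20. It marked 9. C1s1 was 597 CPM in Plin2+/+ fed replicate 3, against 519 to 533 in the other 4. F2 was 983 CPM in Plin2+/+ fed replicate 1, against 1213 to 1249.6. C3 was 9499 CPM in Plin2+/+ fasted replicate 4, against 10526 to 10785. C8a was 293 CPM in Plin2-null fed replicate 5, against 410.1 to 453. C4bp and F13b were 522 and 263 CPM in Plin2-null fed replicate 4, against 421 to 433 and 214 to 218. C8g was 90.8 CPM in Plin2-null fasted replicate 1, against 106 to 111. C2 and F2 were 12.2 and 1489 CPM in Plin2-null fasted replicate 3, against 9.82 to 10.2 and 1105 to 1206. Plin2-null fed replicate 4 and fasted replicate 3 thus had 2 each. Pros1 in Plin2+/+ fasted replicate 3 was not marked.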

How the results depend on the processing

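Of the 24 genes called on fasting in Plin2+/+ livers, 23 stayed called under every alternative and every omitted library, and Cfi did not. In Plin2-null livers 18 of 23 did, and F10, F12, F13b, Fga and Pros1 did not. With library size alone, 15 coagulation genes were called in Plin2+/+ livers, against 8. For genotype in fasted livers, DESeq2 called 3 coagulation genes, against 1, and voom, library size alone, no filter, both TPM settings and the compared groups alone called 0; the cause was not tested. Serping1 in Plin2-null livers went from 0.01 to -0.30 on log2(TPM + 1) and to -0.30 on log2(TPM + 0.1). With each library left out, complement calls on fasting ran from 15 to 17 in Plin2+/+ and 13 to 14 in Plin2-null livers, and coagulation calls from 8 to 10 and 7 to 11. In the same fits 36.9 to 42.6% and 30.6 to 36.8% of all genes were called. For genotype in fasted livers, complement and coagulation calls ran from 0 to 1 and 0 to 3, where 0.0789 to 10.8% of all genes were called. For genotype in fed livers and the interaction they ran from 0 to 0, where at most 0.0243% and 0.00608% of all genes were called. The interaction has no value on the compared groups alone, since it needs all 4. No paired analysis was possible because the replicate numbers only follow the order of the samples. Depth was lowest for C2, whose mean was 10.4 CPM in Plin2-null fasted livers.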
